A study of Mus musculus with 4 samples.

Results

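The vascular endothelial growth factor (VEGF) system of the mouse lung was examined through 9 genes, listed by name and read from the gene rows of a single-cell count matrix. The list holds 4 ligands (Vegfa, Vegfb, Vegfc and Pgf), 3 receptors (Kdr, Flt1 and Flt4) and the neuropilins Nrp1 and Nrp2. All 9 were found among 20076 gene rows. None of them was used to name a cell type or to cluster the cells.

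The study sequenced single cells of whole lungs from 4 mice to learn what deletion of Erg, which encodes an endothelial transcription factor, does to the lung. The 2 libraries labelled WT came from mice with both Erg alleles floxed (Erg fl/fl) and no Cre. The 2 libraries labelled ERG CKO came from mice with the same alleles plus CDH5-CreER(T), a tamoxifen-activated Cre recombinase driven by the promoter of the endothelial cadherin gene. Both groups received tamoxifen (0.5 mg daily, 5 injections), and lungs were taken 90 days later. Each library is 1 mouse, and the age of the animals is not given in the labels.

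VEGF ligands are secreted dimers that act on receptor tyrosine kinases of endothelial cells (ECs). VEGF-A binds VEGFR2, encoded by Kdr, which carries most of its mitogenic and survival signal, and VEGFR1, encoded by Flt1, which binds VEGF-A, VEGF-B and placental growth factor tightly but signals weakly and acts largely as a trap. VEGF-C binds VEGFR3, encoded by Flt4, the receptor of lymphatic endothelium. Neuropilins are co-receptors that lack a kinase domain, with neuropilin 1 mainly in blood vessels and neuropilin 2 mainly in veins and lymphatics. In the alveolus, VEGF-A made by the thin alveolar type 1 cell acts on the capillary wall beneath it. That wall holds general capillary (gCap) ECs and large aerocytes (aCap ECs), through which most gas exchange takes place.

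Cells were clustered and named from marker genes, counts were summed per library and cell type, and levels are given as CPM (counts per 1000000), from the unique molecular identifiers (UMIs, each marking 1 captured RNA molecule) of a gene and the total UMIs of that cell type in that library. Differences between cell types are described without a test, since the cells were grouped by their own expression. Differences between libraries labelled ERG CKO and WT were tested over the 4 mice with the edgeR quasi-likelihood test, with p adjusted over all genes tested by the Benjamini-Hochberg method, and genes with an adjusted p of 0.05 or less were called. Values of the 4 libraries are listed throughout in the order WT replicate 1, WT replicate 2, ERG CKO replicate 1, ERG CKO replicate 2.

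The libraries held 1852 to 3097 cells, 11263911 to 18646776 UMIs and a median of 4611 to 4899 UMIs per cell, and 7 barcodes were shared between libraries among 9363. Xist, the RNA of the inactive X chromosome, was found in replicate 1 of both groups (992 and 1044 CPM) and the Y-linked Ddx3y in replicate 2 of both (113 and 121 CPM), so each group held a library of each kind. Named cell types included 1769 gCap ECs, 317 aCap ECs, 168 vein ECs, 65 artery ECs, 25 lymphatic ECs, 432 fibroblasts, 179 mural cells and 34 alveolar type 1 cells. A further 911 cells of low depth (median 976 UMIs) with endothelial genes stayed unnamed and outside the ECs. The targeted gene did not set the groups apart, because Erg was detected in ECs at 86.7, 87.5, 104.5 and 81.1 CPM, and counts per gene cannot show whether floxed exons are missing. Directions are therefore between libraries as labelled.

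Vegfa and Kdr were the members with a called difference in capillary ECs, so the 250 bases before their transcription starts are shown, from RefSeq on GRCm38.p6, read 5′ to 3′ in the direction of the gene. Capitals mark each GGAA, the core bound by ETS factors such as ERG, on either strand (TTCC is the same core on the other strand). The Vegfa window is chr17:46032378-46032627 and the Kdr window chr5:75978456-75978705, both on the minus strand.
Vegfa: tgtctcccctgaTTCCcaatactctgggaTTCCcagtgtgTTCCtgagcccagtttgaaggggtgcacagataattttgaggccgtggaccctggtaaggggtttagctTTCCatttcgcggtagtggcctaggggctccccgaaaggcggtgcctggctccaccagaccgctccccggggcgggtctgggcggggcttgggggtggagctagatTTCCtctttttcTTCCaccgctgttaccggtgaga
Kdr: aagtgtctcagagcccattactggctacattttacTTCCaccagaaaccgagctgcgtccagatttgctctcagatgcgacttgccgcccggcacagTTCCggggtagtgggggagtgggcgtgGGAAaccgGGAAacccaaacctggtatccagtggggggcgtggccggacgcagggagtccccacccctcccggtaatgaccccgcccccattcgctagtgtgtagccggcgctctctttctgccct

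The Vegfa window held 6 matches to GGAA and the Kdr window 4, against a median of 3 over 32851 mouse promoter windows of this length, of which 93.4% held at least 1. The longer ETS sequence CCGGAA, which contains GGAA and was counted on both strands, occurred 1 time in the Kdr window and not in that of Vegfa, and 12% of all windows held it. Another ETS sequence, AGGAAG, was in neither, and 29.5% of all windows held it. The count does not set the called members apart, since the windows of Flt1 and Nrp1 also held 4 matches to GGAA each, with 2 and 1 matches to AGGAAG. A further RefSeq start of Vegfa, with the window chr17:46025164-46025413, had 2 matches to GGAA, as did Flt4, while Vegfb, Vegfc and Nrp2 had 1 each and Pgf 0. A match is a run of letters and not a binding site.

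**Figure D1:**
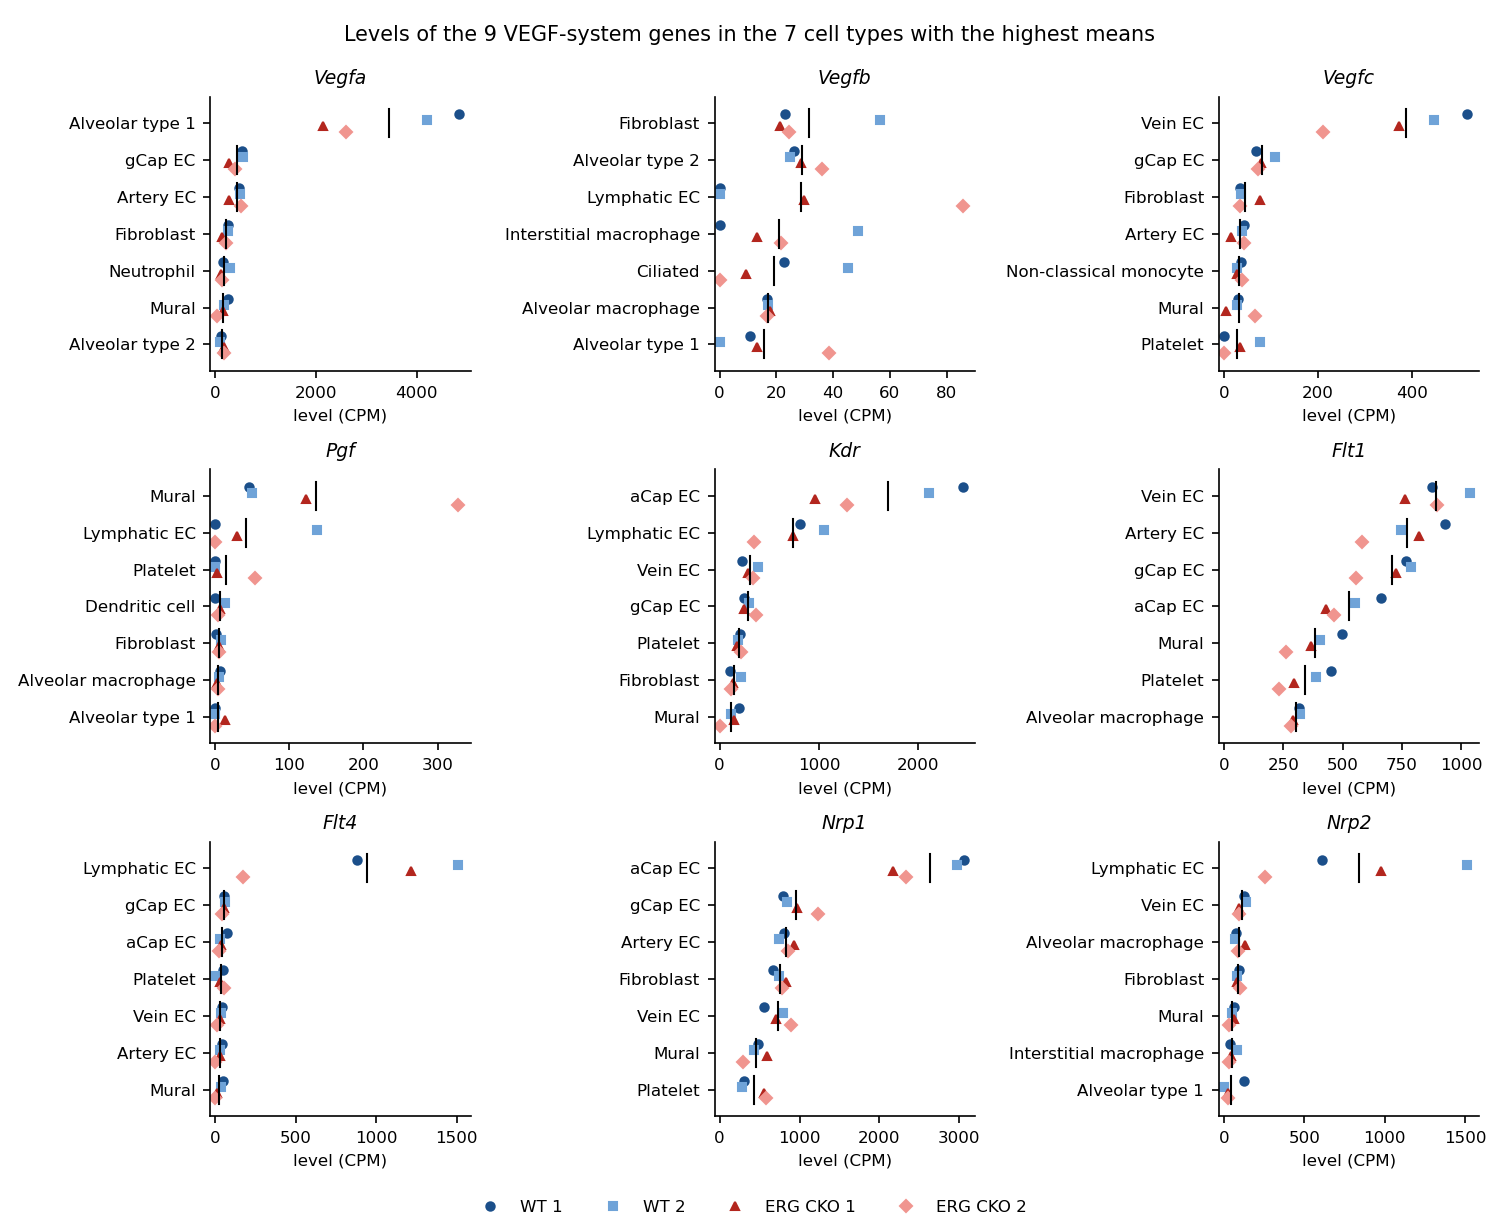
Levels (CPM, horizontal axes, each panel on its own scale) of the 9 genes in the 7 named cell types with the highest mean over the 4 libraries. Each point is 1 library, blue for WT and red for ERG CKO, and the vertical tick is the mean of the 4. Vegfa was highest in alveolar type 1 cells (2143 to 4832 CPM), Kdr and Nrp1 in aCap ECs, and Flt4 and Nrp2 in lymphatic ECs.

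Among the ligands, Vegfa (chromosome 17, 46016993 to 46032369 on GRCm38, minus strand) had its highest level in alveolar type 1 cells, at 4832, 4205, 2143 and 2590.5 CPM. All 4 libraries lay above every library of every other cell type, and both WT libraries lay above both ERG CKO libraries. These values rest on 457, 44, 162 and 202 UMIs in 13, 4, 11 and 6 cells, too few for a test (20 cells per library were required). The exact Poisson 95% intervals, which cover counting error only, were 4399 to 5296, 3056 to 5645, 1825 to 2499 and 2245.5 to 2973 CPM.

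gCap ECs came next for Vegfa, at 522, 554, 275 and 390.2 CPM, and overlapped with artery ECs, at 461, 480.1, 277 and 505 CPM. Fibroblasts followed at 243, 258, 130.1 and 206 CPM, below every artery library. Vein ECs held 125, 165, 71.9 and 122 CPM of Vegfa and aCap ECs 78.9, 48.7, 85.1 and 106 CPM, so that the capillary subtypes did not overlap and gCap ECs were the higher. Because gCap ECs were numerous, they carried 48.1% of all Vegfa UMIs in the WT libraries, against 11.6% from alveolar type 1 cells and 1.2% from aCap ECs. In T and B cells, taken as types that should hold little of these genes, Vegfa lay between 3.35 and 33.4 CPM.

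Vegfc (chromosome 8, 54077606 to 54187096, plus strand) was highest in vein ECs, at 517, 447, 373 and 211 CPM. The vein libraries did not overlap with gCap ECs, the next cell type, at 69.0, 108, 79.0 and 72.4 CPM. Fibroblasts held 33.5, 36.8, 77.1 and 34.4 CPM of Vegfc, and artery ECs 42.9, 39.2, 15 and 42.1 CPM, which overlapped. The 25 lymphatic ECs, which carry the receptor for VEGF-C, had no Vegfc UMI, and a count of 0 allows up to 88.9 to 257 CPM per library at this depth.

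Pgf (chromosome 12, 85166635 to 85177790, minus strand), which encodes placental growth factor, had its highest mean in mural cells, the pericytes and smooth muscle of the vessel wall. Its level there was 45.9, 49.0, 122 and 328 CPM, from 26, 12, 24 and 10 UMIs. Both ERG CKO libraries lay above both WT libraries, but the Poisson interval of ERG CKO replicate 1 (78.2 to 182 CPM) overlapped with that of WT replicate 2 (25.3 to 85.6 CPM), and mural cells numbered 15 in ERG CKO replicate 2, under the minimum for a test. Mural cells held 45.8% of the 83 Pgf UMIs of the WT libraries and alveolar macrophages 31.3%. Lymphatic ECs, the next type by mean, overlapped with mural cells, at 0 to 137 CPM from 4 UMIs.

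Vegfb (chromosome 19, 6982473 to 6987651, minus strand) was low in every type. Fibroblasts had the highest mean, at 23.1, 56.4, 21.2 and 24.5 CPM, and each of the first 6 cell types in its order overlapped with the next. T cells, at 4.96 to 9.49 CPM, lay not far below, so that Vegfb set no cell type apart at this depth. Figf, the gene of VEGF-D and not one of the 9, was a fibroblast gene at 259, 199, 241 and 289.6 CPM, with 78.0% of its WT UMIs there.

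Among the receptors, Kdr (chromosome 5, 75932827 to 75978458, minus strand) was highest in aCap ECs, at 2448, 2106, 959 and 1279.5 CPM. Lymphatic ECs came next at 805, 1054, 740.5 and 342 CPM, where only WT replicate 2 exceeded the lowest aCap library, and then vein ECs at 229, 383, 289 and 333 CPM. gCap ECs, at 242, 291, 240.3 and 364 CPM, overlapped with veins. aCap ECs were 7.69% and 10.3% of the ECs of the WT libraries but held 48.1% of the Kdr UMIs of the WT libraries, and 34.0% in the ERG CKO libraries.

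Flt1 (chromosome 5, 147561604 to 147726011, minus strand) was spread over blood vessels. It stood at 876, 1035, 764 and 898 CPM in veins, at 933, 745, 823 and 581 CPM in arteries, at 768, 786, 724 and 558 CPM in gCap ECs and at 661, 552, 429 and 464 CPM in aCap ECs, with each of these overlapping with the next. Outside vessels it was found in alveolar macrophages at 316.5, 321, 289 and 281 CPM. Cdh5, an EC gene, was at 4.55 to 30.8 CPM there. Macrophages held 20.6% of the Flt1 UMIs of the WT libraries. In fibroblasts, mural cells and platelets, Cdh5 itself stood at 263 to 1191 CPM, and the levels of Kdr and Flt1 in these types lie beside that.

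Flt4 (chromosome 11, 49609263 to 49652739, plus strand) was highest in lymphatic ECs, at 882, 1512, 1214 and 171 CPM, from 23, 33, 41 and 2 UMIs. The lowest value came from 3 cells and lay above every library of gCap ECs, at 55.4, 59.6, 53.8 and 43.9 CPM. Its Poisson 95% interval, 20.7 to 619 CPM, covered all of these gCap values. Since gCap ECs were many, they still held 45.5% of the Flt4 UMIs of the WT libraries, against 11.4% in lymphatic ECs.

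Of the co-receptors, Nrp1 (chromosome 8, 128358604 to 128503363, plus strand) shared its first place with Kdr. In aCap ECs it stood at 3055, 2976, 2171 and 2334 CPM, above every library of gCap ECs, at 793, 845, 968 and 1229 CPM. Arteries (745 to 935 CPM), fibroblasts (662 to 834 CPM) and veins (555 to 891 CPM) followed with overlap. Alveolar type 2 cells, the surfactant producers, held 601.5, 351, 213 and 513 CPM, beside Cdh5 at 23.0 to 36.2 CPM. Lymphatic ECs had no Nrp1 UMI in any library.

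Nrp2 (chromosome 1, 62703285 to 62818695, plus strand) gave the opposite picture in vessels, with 613, 1512, 977 and 257 CPM in lymphatic ECs and 125, 138, 95.3 and 95.3 CPM in veins. aCap ECs had no Nrp2 UMI in the WT libraries, where 3 UMIs would have been 9.10 and 5.61 CPM, and 11 and 3 UMIs in the ERG CKO libraries. Alveolar macrophages, at 77.6, 68.7, 132 and 85.4 CPM, held 46.1% of the Nrp2 UMIs of the WT libraries, and fibroblasts stood at 79.0 to 103 CPM.

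The genes whose pattern over cell types was most like that of each member were listed from the Pearson correlation of mean log2(CPM + 10) over the 16 cell types with at least 50 cells, among 6900 genes. The points share libraries, depth and clustering, and alveolar type 1 and lymphatic cells were too few to enter. Kdr was closest to Piezo2 (r = 0.99), Tspan12 and Prickle1, all 3 highest in aCap ECs. Nrp1 was closest to Ick (r = 0.96), Dock1 and Acvrl1, the receptor for bone morphogenetic protein 9, which stood at a mean of 1605 CPM in aCap ECs.

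Flt1 was closest to Strn3 (r = 0.97), Cyb561 and Stx12, and Flt4 to Dock9 (r = 0.98), Nckap5 and Fnbp1l. Vegfa was closest to Upp1 (r = 0.89), Dab2ip and the chemokine gene Cxcl12, all 3 highest in artery ECs. Vegfc was closest to Ralgapa2 (r = 0.94), Arhgap20 and Lbp, all highest in veins, and Pgf to Synpo2 (r = 0.98), Fam162b and the cation channel gene Trpc6, all highest in mural cells. Vegfb was closest to Pmepa1 (r = 0.92), Vkorc1 and Reps2, and Nrp2 to Colec12 (r = 0.82), Peli2 and Il11ra1.

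When ECs were compared as a whole between the groups, 8 of the 9 genes were abundant enough to be tested and none was called, where 2.89% of 10674 genes were. Vegfa came closest. It was detected at 420.2, 424, 204 and 292 CPM in ECs, so that both WT libraries lay above both ERG CKO libraries. This was a log2 fold change of -0.81 (SE 0.17, adjusted p = 0.0618, edgeR), and DESeq2 called it (adjusted p = 0.00428). At an unadjusted p under 0.05, edgeR had 3 members, Vegfa, Vegfb (-0.65) and Flt1 (-0.37), where 16.4% of all genes tested were.

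Kdr in ECs stood at 525, 602, 367 and 572 CPM, so the groups overlapped. This gave a log2 fold change of -0.31 (SE 0.21, adjusted p = 0.549, edgeR). The makeup of the ECs differed between libraries, with aCap ECs at 7.69%, 10.3%, 14.4% and 19.1% of ECs and gCap ECs at 78.5%, 74.9%, 62.5% and 67.7%. When each library was given the same mix of EC subtypes, the log2 ratio of mean Kdr levels went from -0.26 to -0.44, and that of Vegfa from -0.77 to -0.69. The subtypes were therefore compared separately.

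**Figure D2:**
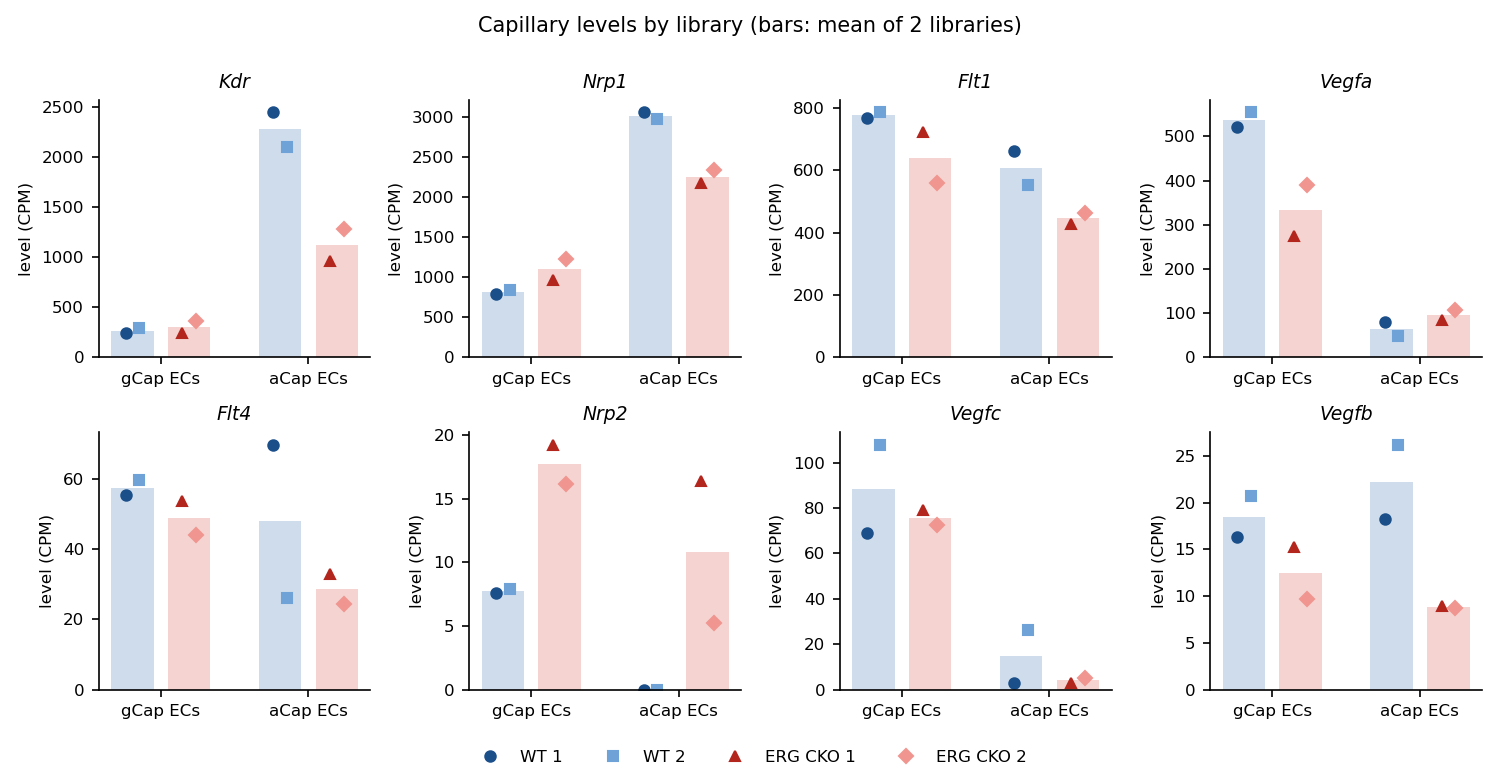
Levels (CPM, vertical axes from 0, each panel on its own scale) of 8 members in gCap and aCap ECs. Each point is 1 library and each bar the mean of 2 libraries, blue for WT and red for ERG CKO. Kdr and Nrp1 were lower in both ERG CKO libraries in aCap ECs and not in gCap ECs, and Vegfa was lower in both in gCap ECs.

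In aCap ECs, Kdr fell in the libraries labelled ERG CKO. The values were 2448 and 2106 CPM in WT and 959 and 1279.5 CPM in ERG CKO, from 642 to 1125 UMIs per library, and the groups were far apart. The fall in Kdr was -1.05 on the log2 scale (SE 0.17, adjusted p = 0.000204, edgeR). Kdr was the only member called of the 6 tested in aCap ECs, where 10.8% of 6989 genes were called.

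The share of aCap ECs with a Kdr UMI was 100%, 100%, 100% and 98.9%. After each cell was thinned to 1000 UMIs, it was 95.5%, 87.5%, 62.3% and 70.5%, against at most 0.29% of T cells. The aCap ECs of the groups differed in other ways as well. The 8 marker genes that named them summed to 13523, 13877, 4867 and 6485 CPM, and the 7 general EC markers to 15480, 15396, 10298 and 9835 CPM. Platelet markers (all 6 detected) summed to 72.8, 155, 442 and 169 CPM. The part of platelet RNA in the result was not tested.

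When aCap ECs were limited to cells with at least 4 of the 8 markers (44, 72, 97 and 84 cells), Kdr was 2448, 2106, 966 and 1307 CPM (log2 fold change -1.02, adjusted p = 0.000370, edgeR). This limit removed no WT cell and left the summed markers at 13523, 13877, 5034 and 6953 CPM, so the groups still differed in them. At 1000 UMIs per cell, 31, 45, 9 and 20 cells showed 5 to 8 markers, and Kdr in them was 2487, 2219, 1456 and 1343 CPM. Cells with 3 or 4 markers (12, 26, 49 and 36) had 2405, 1943, 934 and 1567 CPM. In both ranges of markers the ERG CKO libraries lay below the WT libraries. Cells with at most 2 markers numbered 1, 1, 48 and 39, and Kdr in them was 1234, 1207, 886 and 976 CPM.

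**Figure D3:**
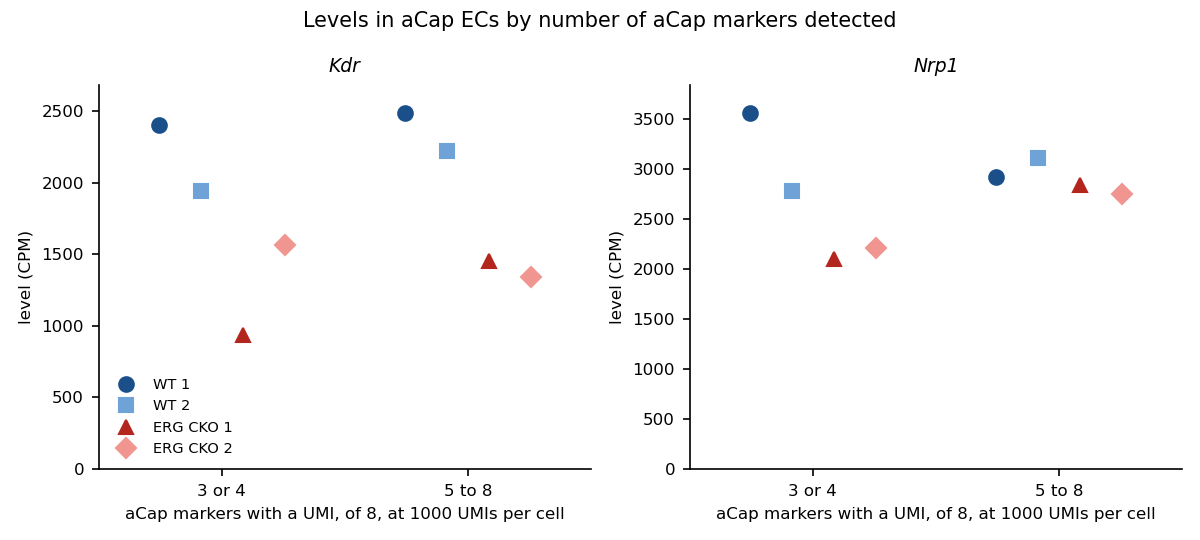
Levels (CPM, vertical axes from 0) of Kdr and Nrp1 in aCap ECs with 3 or 4, or with 5 to 8, of 8 aCap markers detected after thinning to 1000 UMIs per cell. Each point is 1 library. Kdr lay lower in both ERG CKO libraries in either range. So did Nrp1, at 3563 and 2779 CPM in WT and 2105 and 2207 CPM in ERG CKO with 3 or 4 markers. With 5 to 8 markers all 4 libraries lay between 2756 and 3108 CPM of Nrp1.

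The other VEGF receptors and co-receptors of aCap ECs were not called by this test. Nrp1 stood at 3055 and 2976 CPM in WT and 2171 and 2334 CPM in ERG CKO, without overlap (log2 fold change -0.45, SE 0.16, adjusted p = 0.0804, edgeR). In cells with 3 or 4 markers Nrp1 was 3563, 2779, 2105 and 2207 CPM, also without overlap. In cells with 5 to 8 markers it was 2927, 3108, 2844 and 2756 CPM, still without overlap but close. Flt1 was 661, 552, 429 and 464 CPM (-0.46, SE 0.17, adjusted p = 0.106, edgeR), again with both ERG CKO libraries lower.

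Flt4 in aCap ECs was low, at 69.8, 26.2, 32.9 and 24.4 CPM, and the groups overlapped. Of the ligands there, Vegfb was 18.2, 26.2, 8.96 and 8.73 CPM (-1.38, SE 0.55, adjusted p = 0.131, edgeR). Vegfa was 78.9, 48.7, 85.1 and 106 CPM (0.61, SE 0.29, adjusted p = 0.221, edgeR), with WT replicate 1 close to ERG CKO replicate 1.

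In gCap ECs Vegfa was called. It fell from 522 and 554 CPM in WT to 275 and 390.2 CPM in ERG CKO, from 604 to 1125 UMIs per library. The groups did not overlap, and ERG CKO replicate 1 was the lowest. The change in Vegfa was -0.74 on the log2 scale (SE 0.17, adjusted p = 0.0352, edgeR). Vegfa was the only member called of the 8 tested in gCap ECs, where 4.15% of 9896 genes were called.

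The call was not firm. It was made in 14 of 21 alternative settings, with log2 fold changes of -0.99 to -0.25, and was lost without WT replicate 1 (adjusted p = 0.161), without WT replicate 2 (0.248) and when libraries were clustered without alignment (0.812). It was also lost in cells with at least 4 of the 7 gCap markers (-0.59, adjusted p = 0.134, edgeR), where Vegfa was 528, 558, 298 and 445 CPM, again without overlap.

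A Vegfa UMI was found in 79.7%, 79.7%, 59.6% and 64.1% of gCap ECs. At 1000 UMIs per cell, the shares were 42%, 40.7%, 24.2% and 26.0% (445, 516, 455 and 331 cells), against at most 1.16% of T cells.

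None of the 4 clusters that made up gCap ECs had a gCap marker among its 10 leading genes, and 2 had markers of another subtype there. EC cluster 1 (597 cells) had the artery markers Cxcl12 and Hey1 there, and EC cluster 6 (127 cells) the aCap marker Apln, along with Col13a1 and Igfbp3. Without these clusters, the log2 fold change of Vegfa was -0.71 (SE 0.17, adjusted p = 0.0621, edgeR) and the call was lost. The clusters are therefore also given by number. Vegfa was 503, 599, 311 and 396 CPM in EC cluster 0 (-0.67, adjusted p = 0.0940, edgeR), where 1.94% of genes were called. In EC cluster 1 it was 502, 468, 230.1 and 435 CPM (-0.58, adjusted p = 0.344, edgeR; 1.56% of genes called). EC cluster 2, which was led by interferon-induced genes such as Ifit1, held 559, 536, 300.2 and 351 CPM (-0.79, adjusted p = 0.0698, edgeR), and 0.87% of its genes were called. No member was called in any of these 3 clusters. EC cluster 6 had 15, 24, 46 and 42 cells, too few for a test, and 636, 933, 231 and 222 CPM from 21, 50, 40 and 29 UMIs. In each of the 4 clusters, both ERG CKO libraries were below both WT libraries.

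Red cell RNA moved with the groups in gCap ECs, where erythroid markers (5 of 6 detected) summed to 34.2, 48.8, 2707 and 3815 CPM. Without cells over 20 haemoglobin UMIs, the log2 fold change of Vegfa was -0.75 (adjusted p = 0.0448, edgeR). Platelet markers (all 6 detected) summed to 60.8, 62.1, 239 and 118 CPM there, and their part in the result was not tested. The 7 gCap markers summed to 8052, 7913, 5623 and 6057 CPM.

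The receptors of gCap ECs did not follow those of aCap ECs. Kdr was 242, 291, 240.3 and 364 CPM, with overlap (0.13, SE 0.19, adjusted p = 0.832, edgeR). Nrp1 was 793, 845, 968 and 1229 CPM, higher in both ERG CKO libraries (0.38, SE 0.15, adjusted p = 0.228, edgeR). Nrp2 was 7.61, 7.88, 19.3 and 16.2 CPM, from 14, 16, 48 and 25 UMIs, also higher in both (1.16, SE 0.32, adjusted p = 0.0767, edgeR).

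Flt1 in gCap ECs was 768, 786, 724 and 558 CPM, lower in both ERG CKO libraries (-0.32, adjusted p = 0.392, edgeR). Flt4 at 55.4, 59.6, 53.8 and 43.9 CPM also lay lower in both (-0.26, adjusted p = 0.557, edgeR). Vegfc (69.0, 108, 79.0 and 72.4 CPM) overlapped between the groups, and Vegfb (16.3, 20.7, 15.2 and 9.69 CPM) was lower in both ERG CKO libraries without a call. Pgf, with 0 to 7.11 CPM, was too low to test.

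**Figure D4:**
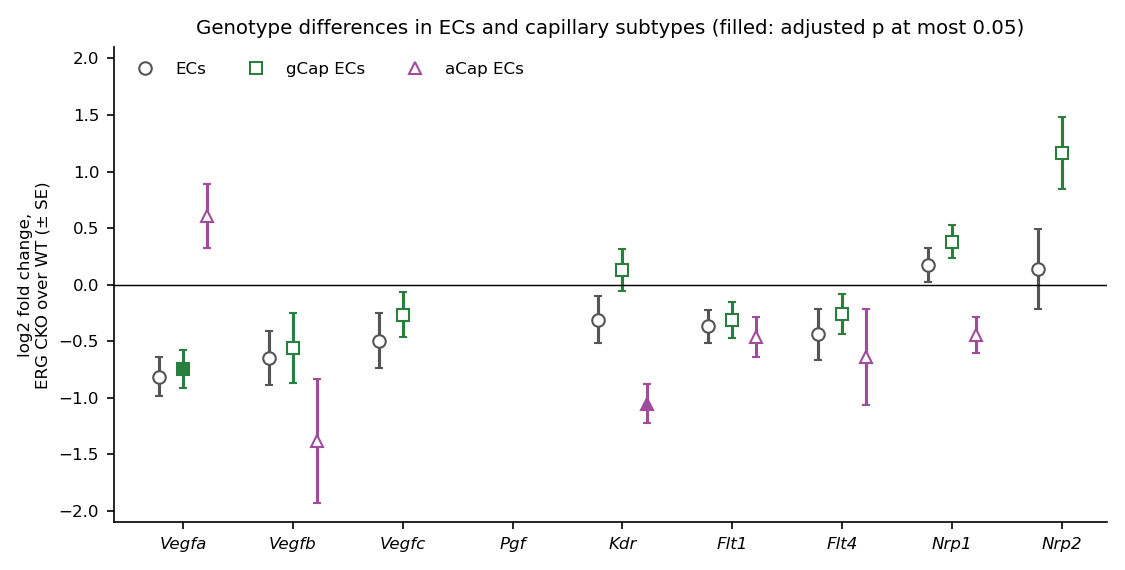
Log2 fold changes (ERG CKO over WT, vertical axis, error bars 1 SE from edgeR) of the members tested in all ECs, gCap ECs and aCap ECs. Filled symbols mark an adjusted p of at most 0.05. Only Vegfa in gCap ECs (-0.74) and Kdr in aCap ECs (-1.05) are filled, and Kdr, Nrp1 and Vegfa lie on opposite sides of 0 in the capillary subtypes.

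Whether an effect differed between the capillary subtypes was tested directly, as the interaction of subtype and genotype within libraries. Of 8 members tested, 3 were called, where 6.25% of 9493 genes were. The genotype effect on Kdr was lower in aCap than in gCap ECs by a log2 difference of -1.16 (SE 0.16, adjusted p = 2.43e-05, edgeR), and that on Nrp1 by -0.80 (SE 0.14, adjusted p = 0.000370). For Vegfa the difference was 1.39 (SE 0.27, adjusted p = 0.00101), the effect in aCap ECs being the higher. With EC clusters 1 and 6 left out of the gCap ECs, the 3 differences were -1.05, -0.91 and 1.32 (adjusted p of 0.00210, 0.00117 and 0.00619, edgeR). In cells with at least 4 markers of their subtype they were -0.90, -0.68 and 1.17, but the aCap markers still differed between the groups there. The calls on Kdr and Nrp1 were made in 13 of 13 alternatives. That on Vegfa was made in 11 and was lost without WT replicate 2 (0.996, adjusted p = 0.0727) and after thinning to 1000 UMIs (0.77, adjusted p = 0.704).

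Outside the ECs, 10 cell types had at least 20 cells in every library, giving 38 tests of a member in a type. None was called by edgeR, where 0.193% of 59109 gene and type pairs were. DESeq2 called none either, and 9 of the 38 had an unadjusted p under 0.05 with edgeR, as did 5.87% of all gene and type pairs. Vegfa was tested in all 10 of these types, and its log2 fold change was below 0 in each, from -1.65 in B cells to -0.10 in NK cells. The B cell value rests on 52 UMIs at 3.47 to 33.4 CPM, in a type taken above as one that should hold little Vegfa. With doublets left out, no member was abundant enough to be tested in B cells.

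In fibroblasts Vegfa was 243, 258, 130.1 and 206 CPM, lower in both ERG CKO libraries (-0.66, SE 0.24, adjusted p = 0.425, edgeR). Vegfc in fibroblasts was 33.5, 36.8, 77.1 and 34.4 CPM, where only ERG CKO replicate 1 was high (0.92, adjusted p = 0.450). Nrp2 in alveolar macrophages was 77.6, 68.7, 132 and 85.4 CPM, higher in both ERG CKO libraries (0.58, SE 0.19, adjusted p = 0.865, edgeR), while Flt1 there differed by -0.15.

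**Figure D5:**
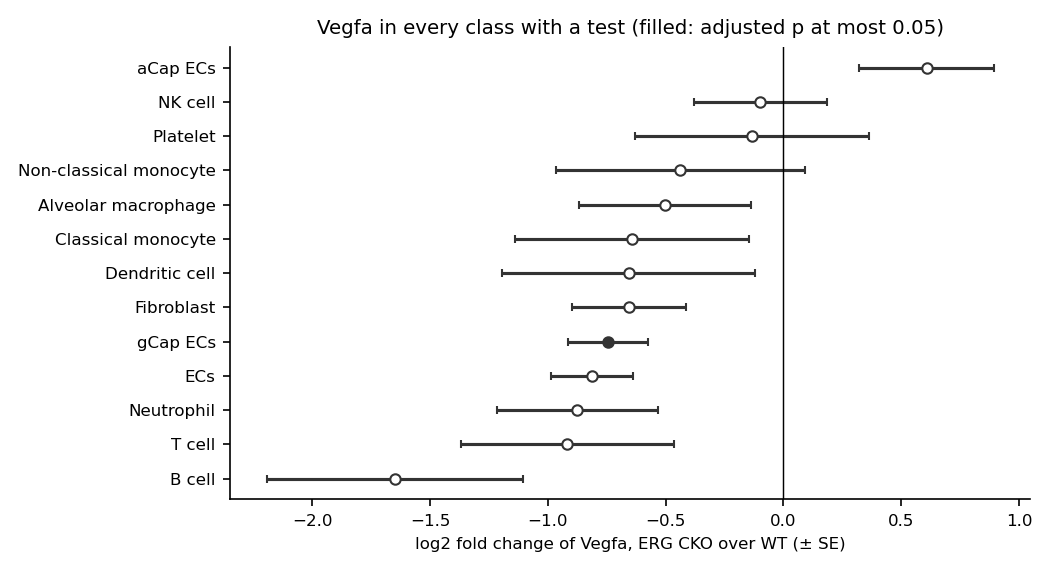
Log2 fold change of Vegfa (ERG CKO over WT, horizontal axis, error bars 1 SE from edgeR) in all ECs, gCap ECs, aCap ECs and the 10 other cell types with a test. The filled symbol, gCap ECs (-0.74), is the only one with an adjusted p of at most 0.05, and aCap ECs (0.61) are the only type above 0.

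Genes that work with the members were read from the same fits, in lists chosen with earlier results of these data known. Among 13 genes induced by VEGF, 3 rose and none fell of 11 tested in ECs, where 2.89% of all genes were called (median log2 fold change 0.16, against 0.01 over all genes). The count was the same in gCap ECs, where 4.15% of all genes were called (median 0.64, against 0.00). In aCap ECs, where 10.8% were called, 3 rose and 2 fell of 8 tested (median 1.09, against 0.01). The 3 in ECs were Angpt2, Nr4a1 and Apln, and DESeq2 called only 2 of them, not Apln (0.64, adjusted p = 0.0491, edgeR), which was called in 6 of 16 alternatives. Angpt2, the destabilizing ligand of the Tie2 receptor, was 13.9, 22.6, 85.8 and 133 CPM in ECs (2.51, adjusted p = 0.0116, edgeR) and rose in both capillary subtypes. In aCap ECs it had no UMI in WT and 167 and 166 CPM in ERG CKO, at least 18.2-fold higher than 3 UMIs in a WT library would be. Nr4a1, an early-response nuclear receptor, rose in aCap ECs from 48.5 and 41.2 CPM to 187 and 127 CPM (1.81, adjusted p = 8.69e-05).

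Apln, which encodes the peptide ligand apelin and is also one of the 8 aCap markers, fell in aCap ECs from 376 and 352 CPM to 185 and 169 CPM (-1.06, adjusted p = 0.000482, edgeR) and rose in gCap ECs from 4.89 and 1.97 CPM to 95.9 and 87.2 CPM (4.71, adjusted p = 1.19e-05). Without EC clusters 1 and 6 its rise in gCap ECs was 3.63 (adjusted p = 0.00306). Dll4, a Notch ligand, fell in aCap ECs from 127 and 105 CPM to 32.9 and 33.2 CPM (-1.82, adjusted p = 0.000127) and was not called in gCap ECs (-0.41). Adamts1, a metalloprotease, stood at 85.0 and 33.7 CPM in WT and 109 and 127 CPM in ERG CKO in aCap ECs (1.07, adjusted p = 0.0273, edgeR), a call that DESeq2 did not make (adjusted p = 0.327).

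Of the semaphorins and plexins that bind or signal with neuropilins, none rose and 2 fell of 7 tested in aCap ECs. There 10.8% of all genes were called, and the median log2 fold change was -0.55, against 0.01 over all genes. None of 8 in gCap ECs and 9 in ECs was called by edgeR or DESeq2. Of these, 4 and 5 had an unadjusted p under 0.05, against 15.5% and 16.4% of all genes. Plxna2, a plexin co-receptor, fell in aCap ECs from 179 and 185 CPM to 31.4 and 40.1 CPM (-2.38, adjusted p = 1.03e-06, edgeR). Sema3f, a ligand of neuropilin 2, fell from 522 and 547 CPM to 205 and 260.1 CPM (-1.23, adjusted p = 7.55e-05).

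Of 12 receptor partners, 1 of 10 tested fell in aCap ECs, where 10.8% of all genes were called. This was Cdh5 (VE-cadherin, which binds VEGFR2 at junctions), from 2543 and 2276 CPM to 1546 and 1454 CPM (-0.71, adjusted p = 0.00422, edgeR). In gCap ECs 1 of 12 rose, where 4.15% of all genes were called. This was the integrin Itgb3, from 1.09 and 0.99 CPM to 18.9 and 14.2 CPM (3.91, adjusted p = 0.00209, edgeR). Platelet markers summed to 60.8, 62.1, 239 and 118 CPM in gCap ECs, and their part in this rise was not tested. In ECs edgeR called none of the 12 partners, and DESeq2 called Itgb3. Of the 12, 7 had an unadjusted p under 0.05 with edgeR, against 16.4% of all genes. Of 29 signalling genes below the receptors, 1 fell of 22 tested in aCap ECs, where 10.8% of all genes were called. This was the adaptor Nck1 (-1.04, adjusted p = 0.00129, edgeR). None of 26 was called by edgeR or DESeq2 in gCap ECs or in ECs. Of these, 4 and 3 had an unadjusted p under 0.05, against 15.5% and 16.4% of all genes. Of VEGF-D and the ligand-processing genes, only Plau, the urokinase, was tested in aCap ECs and it rose (1.13, adjusted p = 0.0349), a call that DESeq2 did not make.

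None of the 12 hypoxia pathway genes was called by edgeR or DESeq2 in ECs (11 tested), gCap ECs (11 tested) or aCap ECs (6 tested), and 1, 2 and 1 of them had an unadjusted p under 0.05, against 16.4%, 15.5% and 21.2% of all genes. Epas1, the hypoxia-inducible factor of endothelium, stood at 2452, 2302, 1911 and 2162 CPM in ECs (-0.26, adjusted p = 0.359, edgeR), and Ldha at 151, 141, 187 and 171 CPM (0.26, adjusted p = 0.374).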

How the data were processed

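Whole lungs were dissociated enzymatically, and single cells were captured on the 10x Genomics GemCode platform and sequenced on a NextSeq 500. Cell Ranger 3.1.0 and the mm10 genome are named in the submitters' processing notes. The authors deposited UMI counts without normalization, 1 value per gene and cell, as a matrix of 20076 rows and 9363 barcodes. Its cells held at least 500 UMIs and 300 genes, and up to 49.2% mitochondrial counts. The limits of the quality filter are not given in the sources used here. The paper reports fewer cell profiles after its own quality filtering, so the matrix is not the set of cells that it analysed. Each barcode carries the title of its library, which gave its group.

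All cells of the matrix were kept, including any that the study left out. They were clustered in Seurat 5.3.0 (2000 variable genes, canonical correlation alignment, 30 dimensions, resolution 0.8), leaving 98 genes, the members and related genes included, out of that step. Names came from marker lists (at least 3 markers with a log2 fold of at least 1). ECs were re-clustered (20 dimensions, resolution 0.6), with the genes called between the groups in ECs also left out of that step. With them kept, 1 member was called in gCap ECs and 1 in aCap ECs. Epithelial cells were re-clustered as well, a step added after the data were seen. Cell names were thus rebuilt and can differ from those of the study. No marker list covered the intermediate ECs that the paper describes in ERG CKO lungs, so these may lie within the named subtypes or the unnamed ECs. scrublet in scanpy 1.11.5 marked 60 doublets (0.641%), which were kept.

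Counts were summed per library and class and tested in edgeR 4.0.16 (R 4.3.3; quasi-likelihood, TMM, filterByExpr, no covariate). On simulated data for ECs (10495 genes), 68.4% of genes changed 2-fold and 89.7% of genes changed 4-fold were called, and 0.155% of unchanged genes. The alternative test was DESeq2 1.42.0. An exact permutation test of 2 mice against 2 has a smallest p of 0.333, so none was used. The members, marker lists and gene lists were chosen with earlier results of these data known. Named genes were all 9 members, the 3 genes closest to each in pattern (at least 50 CPM in some class), and listed pathway genes called in ECs or either capillary subtype, with the 2 highest in ECs where none was called. Gene positions are from GENCODE vM21 (GRCm38).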

Additional observations from a re-analysis of the deposited data

Results flagged for a closer look

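For 3 genes, the difference between ERG CKO and WT libraries was not the same in the capillary subtypes, by the interaction test in edgeR. Kdr differed by a log2 value of -1.16 (aCap minus gCap), being lower in both ERG CKO libraries in aCap ECs and overlapping in gCap ECs. Nrp1 differed by -0.80, being lower in both ERG CKO libraries in aCap ECs and higher in both in gCap ECs. Vegfa differed by 1.39, being lower in both ERG CKO libraries in gCap ECs and higher in both in aCap ECs, where it rests on 26 to 61 UMIs per library. Beside these differences, aCap marker genes summed to 13523 and 13877 CPM in the WT aCap ECs and to 4867 and 6485 CPM in those labelled ERG CKO, while in gCap ECs they summed to 291 and 237 CPM in WT and 544 and 672 CPM in ERG CKO. In aCap ECs with at least 4 markers, the sums were still 13523 and 13877 CPM in WT and 5034 and 6953 CPM in ERG CKO. The part of this shift of markers in the 3 differences was not tested.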

How the results depend on the processing

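Of 510 recomputed member values, 460 kept their direction and their side of the threshold, 9 lost and 24 gained a call, and 17 changed sign, none of them called. Kdr in aCap ECs was called in 20 of 20 alternatives (log2 fold change -1.64 to -0.87, adjusted p at most 0.00110). The causes of the changes below were not tested. Genes called in ECs (308) were 1129 with no filter on low counts and 30 to 429 with a library left out, and members called (0) were 1 with DESeq2, 2 with no filter, 1 at 1000 UMIs per cell and 0 to 2 with a library left out. In gCap ECs, genes called (411) were 249 with DESeq2, 847 with no filter, 5 without alignment, 273 at resolution 1.2, 201 with ECs re-clustered at resolution 1.0, 175 without EC clusters 1 and 6, 164 at 1000 UMIs and 140 to 793 with a library left out. Members called there (1) were 2 with no filter, 0 without alignment, 0 at resolution 1.2, 0 with ECs at resolution 1.0, 0 without EC clusters 1 and 6, 0 in cells with at least 4 markers and 0 to 3 with a library left out. In aCap ECs, genes called (757) were 365 with DESeq2, 1306 without alignment, 216 at 1000 UMIs and 474 to 720 with a library left out, and members called (1) were 2 with no filter, 4 without alignment, 2 at 1000 UMIs and 3 when the top cell per gene and library was dropped. In the other classes, members called (0) were 2 with no filter and 0 to 3 with a library left out.

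No label says that the replicate numbers pair the mice, and with the replicate block genes called were 899 in ECs, 905 in gCap ECs and 976 in aCap ECs, and members called were 1, 3 and 3, with 1 in the other classes. These were Vegfa in ECs, Vegfa, Nrp1 and Nrp2 in gCap ECs, Kdr, Flt1 (adjusted p = 0.0466) and Nrp1 (0.0465) in aCap ECs, and Nrp2 in alveolar macrophages (0.0439). The replicate numbers coincide with the split of the libraries by Xist and Ddx3y. The correlation of the replicate differences between groups was 0.21 in ECs, 0.18 in gCap ECs and 0.08 in aCap ECs.

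Signs changed as follows, on the log2 scale. With 1 library left out in turn, Nrp2 in ECs ranged from -0.63 to 0.56, and in gCap ECs Vegfc from -0.55 to 0.090 and Kdr from -0.17 to 0.38. Flt4 in aCap ECs ranged from -1.29 to 0.11, and the aCap minus gCap differences from -2.25 to 0.31 for Vegfc, -0.38 to 0.15 for Flt1 and -1.04 to 0.42 for Flt4. Without alignment, gCap ECs had Vegfc at 0.20, Kdr at -0.56 and Flt1 at 0.073, and Flt4 was 0.046 in aCap ECs with a difference of 0.53. In gCap ECs with at least 4 markers, Vegfc was 0.070 and Kdr -0.14. At 1000 UMIs, Kdr in gCap ECs was -0.10, and with ECs at resolution 1.0 Vegfc was 0.0083. The 4-marker setting, the one without EC clusters 1 and 6 and all alternatives of the aCap minus gCap difference were chosen after the data were seen. Depth limits what can be said of Pgf, Vegfb and Nrp2, and of lymphatic, mural and alveolar type 1 cells, which had too few cells for a test.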
